A study of Arabidopsis thaliana with 15 samples.

Results

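The mitochondrial genome of Arabidopsis thaliana was represented in the deposited table by 23 genes, which were all those with an identifier that starts with ATMG, of 14190 genes in all. Whole seedlings of ecotype Col-0, 2 weeks old, were profiled by bulk MARS-seq, which sequences the 3' ends of transcripts. The 15 libraries formed 5 groups of 3, from seedlings that had no toxin (the controls) or 0.1, 1, 10 or 100 µM of cercosporin, a toxin of Cercospora fungi that makes reactive oxygen in light. Per the labels' protocols, the treated seedlings spent 1 h with the toxin in the dark, had 3 washes and then 30 min of light at 30 µE, whereas control plates were kept in light throughout. Every comparison with the controls therefore held the toxin, the dark step and the washes together, while the doses shared a light regime. All groups are the wild type, with no transgene or mutation named.

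A few genes of the respiratory chain complexes and of ATP synthase, parts of the cytochrome c maturation machinery, and the ribosomal and transfer RNAs of the organelle are still encoded in the plant mitochondrial genome. The other subunits of the same complexes are made from nuclear genes and imported. MARS-seq primes on poly(A) tails, and in plant mitochondria such tails are known mainly as marks that speed up RNA decay, so counts on these genes need not follow the amount of their mature RNA. The reference annotation used here names 3 of the 23 identifiers, in notes that cite them. ATMG00180 is named there as a cytochrome C biogenesis gene, whose product is of the kind that helps attach haem to c-type cytochromes. ATMG01090 is named as mitochondrial ATP synthase 9, and ATMG00560 as an OB-fold-like nucleic acid-binding protein. These names were not checked against an entry for the gene itself, so they are not taken as settled identities. The other 20 keep their identifiers only, and no function is given to them.

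The libraries labelled 100 µM stood apart from the others, with 3392 of the 10374 genes tested called against the controls, and 0 to 19 called at the lower doses. The 1 µM replicate 2 library was the smallest, with 834190 counts, and the largest had 4554702. The 100 µM libraries alone had a sample code with the digit 1, while 10 µM shared the digit 8 with 1 control and all others had 7. What the digit stands for is not given. It cannot be told apart from the dose at 100 µM, and at 10 µM it can be only through that 1 control. Whether the 3 libraries of a group were separate cultures is not stated in the labels, so each p-value reflects only the spread among these libraries, and that spread may be technical. Counts held amplification copies, so intervals of counting error would be too narrow and none is given. In bulk samples, fewer mitochondria or cells and less RNA in each cannot be told apart.

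ATMG00020 took most of the mitochondrial counts. Pooled over all libraries it held 93.3% of the mitochondrial counts, ATMG01390 held 4.49%, and ATMG00660 came next with 0.503%. These are shares of 3'-end counts and not levels per transcript length. The summed counts over 23 genes therefore described little beyond ATMG00020. Of the others, 5 averaged 33.8 to 113 counts per library, and 8 averaged under 5 counts. Between 18 and 23 of the genes had at least 1 count in a library, with the 18 in the smallest library, and 7 genes were at 0 in at least 1 library.

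At 100 µM the count on ATMG00020 fell to 0.321 times the control level, while ATMG01390 did not pass the test. ATMG00020 had 3901, 2562 and 2744 CPM in the 100 µM libraries, where CPM are counts scaled to the normalised library total. It had 9333, 10882 and 8453 CPM in the controls. All 3 libraries of 100 µM lay below every other library of the study, and the groups did not overlap. The mean was 3069 ± 726 CPM at 100 µM and 9556 ± 1229 CPM in the controls (SD, n = 3 each), a log2 change of -1.64 ± 0.20 (SE; edgeR quasi-likelihood test, Benjamini-Hochberg adjusted p = 6.63e-06). The authors' deposited table gave ATMG00020 a log2 change of -1.62, with an adjusted p of 6.34e-12.

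At the lower doses ATMG00020 did not pass the test against the controls. It had 10725, 9081 and 13712 CPM at 0.1 µM, 11042, 9474 and 10251 CPM at 1 µM, and 10389, 11635 and 7134 CPM at 10 µM. The controls overlapped each of these groups, and the 10 µM group held the lowest of these libraries. Against the mean of the 3 lower doses, which shared the dark step and the light with it, 100 µM changed ATMG00020 by -1.76 ± 0.18 on the log2 scale (edgeR adjusted p = 3.43e-07). The log2 changes against the controls were 0.02 ± 0.19 at 10 µM, 0.10 ± 0.19 at 1 µM and 0.23 ± 0.19 at 0.1 µM, with edgeR adjusted p of 0.999, 0.988 and 0.944.

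ATMG01390 had 355.0, 449.8 and 321.0 CPM in the 100 µM libraries, against 379.8, 456.2 and 426.5 CPM in the controls. The groups overlapped, and its lowest library was of 100 µM and its highest of 0.1 µM, with 557.0 CPM. The log2 change at 100 µM was -0.17 ± 0.18 against the controls (edgeR adjusted p = 0.499) and -0.24 ± 0.15 against the lower doses (edgeR adjusted p = 0.202). Means at the lower doses were 493 ± 67.9 CPM at 0.1 µM, 412 ± 31.9 CPM at 1 µM and 423 ± 96.1 CPM at 10 µM (SD, n = 3 each).

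The 22 genes other than ATMG00020 were also summed. They held 0.0495%, 0.0620% and 0.0450% of the counts in the 100 µM libraries, and 0.0598%, 0.0702% and 0.0631% in the controls. The ranges overlapped. The group mean was 0.810 times that of the controls for this sum, and 0.350 times for all 23 genes. All 23 together held 0.438%, 0.312% and 0.318% of the counts in the 100 µM libraries, against 0.961%, 1.19% and 0.904% in the controls, which did not overlap. Exact permutation of this share gave p = 0.1 against the controls, the smallest possible for 3 against 3 (adjusted over 5 comparisons, 0.25). Against the lower doses the exact permutation p of this share was 0.00909, the smallest possible for 3 against 9 (adjusted over 5 comparisons, 0.0455). For the sum of the other 22 the adjusted permutation p was 0.5 against the controls and 0.136 against the lower doses. At 0.1, 1 and 10 µM all 23 genes together held 1.16%, 1.10% and 1.04% on average, close to their control mean of 1.02%.

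**Figure D1:**
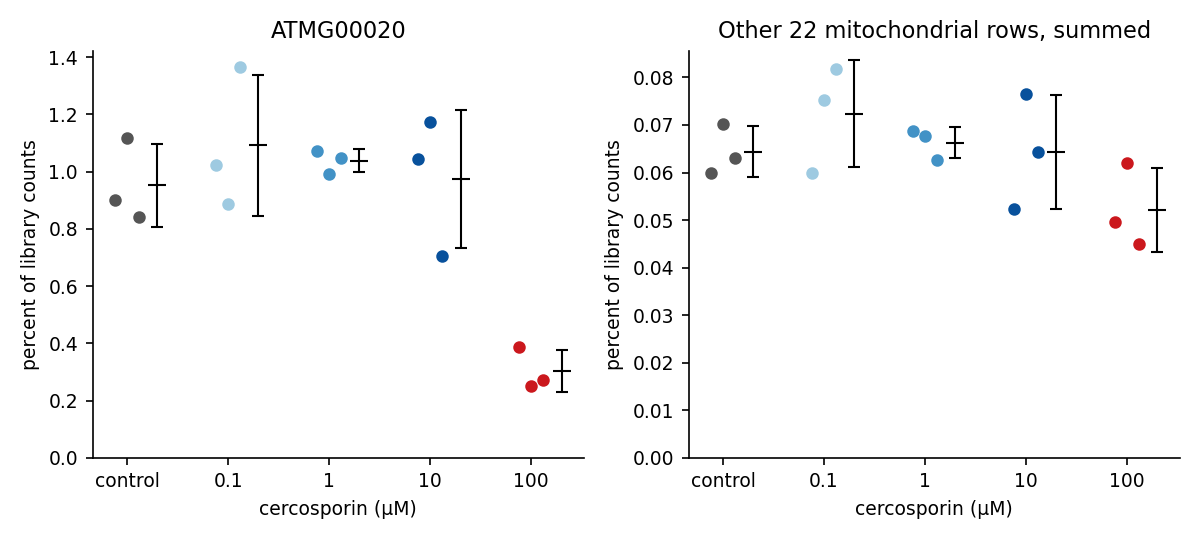
Percent of the library's counts on ATMG00020 (left) and on the other 22 mitochondrial genes summed (right), by cercosporin dose, with each library as a point and mean ± SD beside it (n = 3). ATMG00020 is lowest in all 3 libraries of 100 µM, whereas the sum of the others, at 0.0495%, 0.0620% and 0.0450% in those libraries, overlaps the controls.

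The composition of the mitochondrial counts therefore differed at 100 µM. ATMG00020 held 88.7%, 80.1% and 85.9% of the mitochondrial counts in the 100 µM libraries, and 93.8%, 94.1% and 93.0% in the controls. The 9 libraries of the lower doses lay between 91.7% and 95.2%. Within the counts of the other 22 genes, ATMG01390 held 71.0% ± 0.319 at 100 µM and 65.1% ± 3.27 in the controls (SD, n = 3 each).

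Because a ratio of 2 genes in the same library needs no scaling between libraries, ATMG00020 was also set against ATMG01390, a measure chosen after the values had been seen. The count ratio was 11.0, 5.69 and 8.55 in the 100 µM libraries and 24.6, 23.9 and 19.8 in the controls. In the lower doses it lay between 16.7 and 32.0, with both of those libraries at 10 µM. All 3 ratios at 100 µM lay below all 12 others. The mean ratio was 8.41 ± 2.65 at 100 µM, 23.8 ± 4.47 over the 9 lower-dose libraries and 22.7 ± 2.56 in the controls (SD, n = 3, 9 and 3). Since the values of both genes prompted the ratio, it is given as a description with no test.

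**Figure D2:**
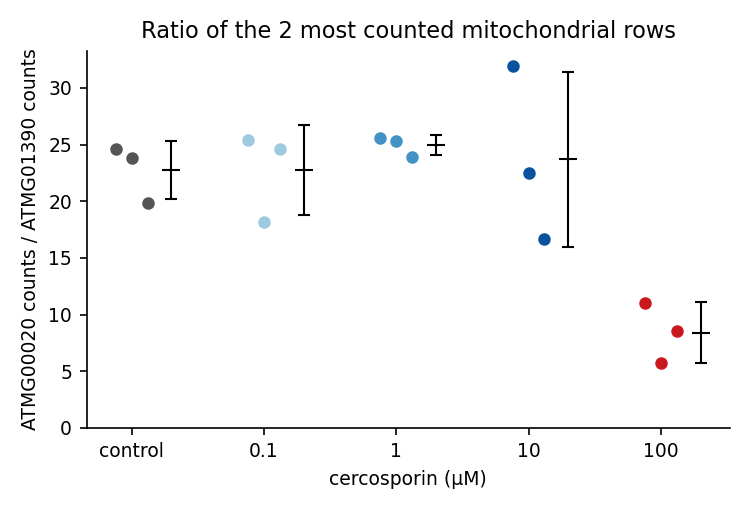
Count of ATMG00020 divided by the count of ATMG01390 in each library, by cercosporin dose, with mean ± SD beside the points (n = 3). The 100 µM libraries sit at 5.69 to 11.0, and the other 12 at 16.7 to 32.0.

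Of the 23 genes, 14 passed the filter on low counts and were tested, among 10374 genes in all. At 100 µM against the controls 0 were called higher and 4 lower, where called means an edgeR adjusted p under 0.05. Over all genes tested, 18.1% were called higher and 14.6% lower in that comparison, so 32.7% in either direction. The median log2 change of the 14 was -0.64, beside -0.02 over all genes tested. Below 0 were 13 of the 14, beside 5296 of all 10374. Besides ATMG00020, the 4 were ATMG00516, ATMG00090 and ATMG01370, with means of 17.8, 18.2 and 45.7 counts per library. The 14 include genes with few counts that passed the filter, so the median does not stand for all 23.

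ATMG00516 had 1, 2 and 11 counts in the 100 µM libraries, which is 0.649, 1.96 and 3.78 CPM. In the controls it had 17, 27 and 16 counts, or 7.85, 15.6 and 8.64 CPM. The highest library of 100 µM lay below the lowest of any other group, which was 6.18 CPM at 0.1 µM. Its log2 change was -2.09 ± 0.45 (edgeR adjusted p = 0.00166), and against the lower doses -1.70 ± 0.40 (edgeR adjusted p = 0.00230). Without 100 µM replicate 3 these changes of ATMG00516 were -3.11 and -2.72, and without 100 µM replicate 1 they were -1.72 and -1.33, called in each case.

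ATMG00090 had 1, 3 and 15 counts at 100 µM, or 0.649, 2.95 and 5.16 CPM, against 18, 17 and 34 counts, or 8.31, 9.80 and 18.4 CPM, in the controls. The groups did not overlap, and the lowest library of the lower doses stood only just above the highest of 100 µM, at 5.29 CPM. The log2 change was -1.86 ± 0.50 against the controls (edgeR adjusted p = 0.00806) and -1.26 ± 0.45 against the lower doses (edgeR adjusted p = 0.0300). The call of ATMG00090 against the controls was lost without control replicate 3 (-1.47, edgeR adjusted p = 0.0508). Without 100 µM replicate 3 its changes were -2.89 and -2.29. Against the lower doses the call of ATMG00090 was lost without 100 µM replicate 1 (-0.85, edgeR adjusted p = 0.126) and without 100 µM replicate 2 (-1.23, edgeR adjusted p = 0.0679).

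ATMG01370 differed from the preceding genes in its lower doses. It had 19.5, 9.82 and 10.7 CPM at 100 µM and 32.3, 23.6 and 25.4 CPM in the controls, and these groups did not overlap. The log2 change was -1.03 ± 0.30 (edgeR adjusted p = 0.0125), with the call lost without 100 µM replicate 3 (edgeR adjusted p = 0.0673) and after thinning all libraries to 1 total (edgeR adjusted p = 0.0626). Its control libraries also lay above those of 1 µM, with 18.5, 22.9 and 17.3 CPM, and of 10 µM, with 13.3, 16.3 and 19.3 CPM. At 0.1 µM it had 17.0, 30.1 and 20.4 CPM, which overlapped the controls. Against the lower doses 100 µM did not pass the test for ATMG01370 (-0.53 ± 0.26, edgeR adjusted p = 0.104), but did without 100 µM replicate 1 (-0.90, edgeR adjusted p = 0.0136).

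**Figure D3:**
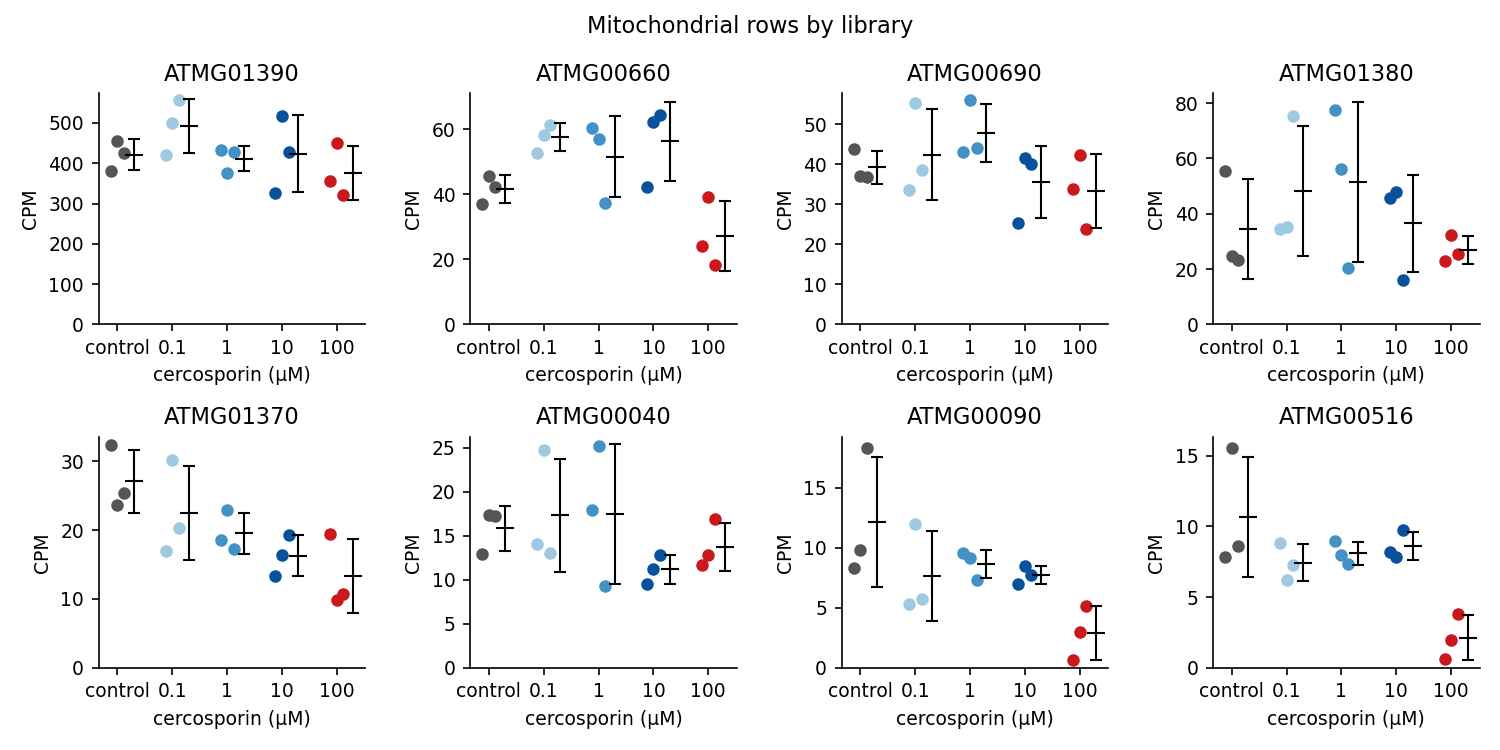
CPM of 8 mitochondrial genes in each library, by cercosporin dose, with mean ± SD beside the points (n = 3); each panel has its own axis from 0. ATMG00090 and ATMG00516 are low in all 3 libraries of 100 µM, while ATMG01390, ATMG00690, ATMG01380 and ATMG00040 overlap between 100 µM and the controls.

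ATMG00660, next to ATMG01390 by counts, passed the test against the lower doses but not against the controls. It had 24.0, 39.3 and 18.2 CPM at 100 µM and 36.9, 45.6 and 42.1 CPM in the controls, with overlap at 100 µM replicate 2. Means were 57.6 ± 4.36 CPM at 0.1 µM, 51.6 ± 12.4 CPM at 1 µM and 56.3 ± 12.1 CPM at 10 µM, beside 41.5 ± 4.35 CPM in the controls (SD, n = 3 each), and none of these 3 doses passed the test against the controls. The log2 change at 100 µM was -1.09 ± 0.23 against the lower doses (edgeR adjusted p = 0.000814) and -0.68 ± 0.27 against the controls (edgeR adjusted p = 0.0594). The change of ATMG00660 against the controls passed the test without 100 µM replicate 2 (-1.01, edgeR adjusted p = 0.00862), with no filter on low counts (edgeR adjusted p = 0.0359) and after thinning (edgeR adjusted p = 0.0399).

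For the remaining genes with at least 20 counts on average, the 100 µM and control libraries overlapped. ATMG00690 had 33.7, 42.2 and 23.7 CPM at 100 µM, against 43.8, 36.9 and 36.7 CPM in the controls (log2 change -0.28 ± 0.26). ATMG01380 had 22.7, 32.4 and 25.4 CPM, against 55.4, 24.8 and 23.2 CPM in the controls (log2 change -0.40 ± 0.50). ATMG00040 had 11.7, 12.8 and 16.8 CPM, against 12.9, 17.3 and 17.3 CPM in the controls (log2 change -0.16 ± 0.35). The edgeR adjusted p of ATMG00690, ATMG01380 and ATMG00040 was 0.428, 0.583 and 0.763. ATMG01380 also varied within groups, with 77.6, 56.0 and 20.5 CPM at 1 µM, and its control replicate 1 stood high.

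ATMG00180, named in the notes as a cytochrome C biogenesis gene, had 3.89, 8.84 and 6.87 CPM at 100 µM. It had 8.77, 16.1 and 7.02 CPM in the controls. The groups overlapped, and the log2 change was -0.72 ± 0.38 (edgeR adjusted p = 0.162). Its means at 0.1, 1 and 10 µM were 6.42, 8.09 and 10.1 CPM. ATMG00670 had 6.49, 3.93 and 5.84 CPM at 100 µM and 11.1, 9.23 and 8.10 CPM in the controls, without overlap, yet did not pass the test (-0.76 ± 0.37, edgeR adjusted p = 0.132). With ATMG00670, 5 of the 14 had non-overlapping groups with 100 µM the lower, against 19.6% of all genes tested. The 3 other genes tested, ATMG00060, ATMG00650 and ATMG00160, averaged 7 to 11.6 counts and were not called, with log2 changes of -0.42, -0.59 and 0.28. The change of ATMG00160 rests on 7, 7 and 0 counts at 100 µM and 4, 7 and 3 in the controls, and it was -0.47 without 100 µM replicate 2, -0.17 without 100 µM replicate 1 and 1.16 without 100 µM replicate 3, so it has no settled direction.

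The 9 genes below the filter averaged 1.47 to 6.87 counts per library and were not tested. They were ATMG00030, ATMG00070, ATMG00080, ATMG00560, ATMG00640, ATMG00665, ATMG01090, ATMG01120 and ATMG01130. ATMG01090, named in the notes as ATP synthase 9, had 1, 1 and 2 counts at 100 µM. It had 2, 2 and 1 in the controls, and at most 6 in any library. ATMG00560, named in the notes as an OB-fold-like protein, had 0, 0 and 2 counts at 100 µM. It had 1, 0 and 1 in the controls, and was at 0 in 6 of the 15 libraries. At 10 µM ATMG00560 had 2, 2 and 5 counts, above the controls without overlap in CPM, and at 1 µM it had 0 in all 3 libraries. With so few counts no difference between groups is read from either gene. The other 7 had at most 21 counts in a library.

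Against the lower doses, 100 µM gave 4 genes lower and 0 higher of 14, where 19.2% of all genes tested were called lower and 23.1% higher. The 4 were ATMG00020, ATMG00516, ATMG00090 and ATMG00660. All 14 had log2 changes below 0, beside 5373 of all 10374 genes tested. The median of the 14 was -0.56, beside -0.03 over all genes tested. In 3 of them, ATMG00020, ATMG00516 and ATMG00090, the 100 µM libraries lay below all 9 others, which held for 12.7% of all genes tested. Both comparisons use the same 100 µM libraries, and the comparisons with controls share the controls, so they are not independent.

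**Figure D4:**
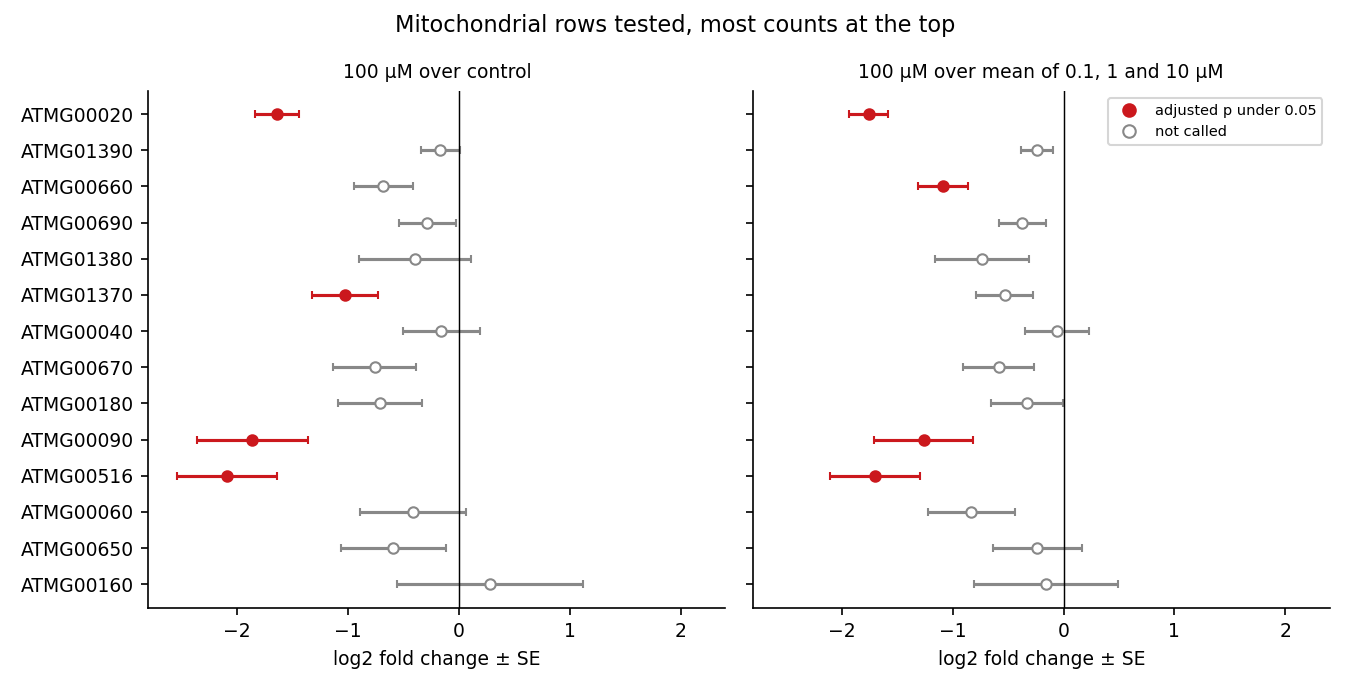
Log2 fold change ± SE from edgeR of the 14 mitochondrial genes tested, at 100 µM over the controls (left) and over the mean of 0.1, 1 and 10 µM (right), ordered by mean count with the highest at the top. Filled points passed an adjusted p of 0.05: 4 genes in each panel, all to the left of 0.

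Below 100 µM no mitochondrial gene passed the edgeR test in any comparison. At 10 µM against the controls 0 of 14 were called, beside 0.00964% of all genes, and 1 had an unadjusted p under 0.05, ATMG01370 (-0.71 ± 0.27, edgeR adjusted p = 0.804). At 1 µM 0 of 14 were called, beside 0.183% of all genes, and at 0.1 µM 0 of 14, beside 0%, with 0 at an unadjusted p under 0.05 at both doses. Between 10 µM and the mean of 0.1 and 1 µM, 0 of 14 were called beside 0.733% of all genes, again with 0 unadjusted. DESeq2 also called 0 in each of these 4 comparisons. It gave no adjusted p, however, for 17 of the 23 genes at 1 µM against the controls. The same held for 11 of 23 at 10 µM against the mean of 0.1 and 1 µM. Genes without an adjusted p could not be called. Among the 14, non-overlapping groups were found for ATMG01370 and ATMG00040 at 10 µM and for ATMG01370 and ATMG00670 at 1 µM, all lower than the controls, where 5.36% and 7.23% of all genes tested did so. At 0.1 µM ATMG00660 and ATMG00060 lay above the controls without overlap, beside 7.21% of all genes tested.

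The shares of other sequence classes were set beside these values. Chloroplast genome counts, over 64 genes, held 0.248%, 0.205% and 0.211% in the 100 µM libraries and 0.462%, 0.451% and 0.490% in the controls, without overlap. Among the other 12 libraries the highest chloroplast share, 0.688%, was in 10 µM replicate 3, the library with the lowest share of ATMG00020 there, 0.706%. The highest share of ATMG00020 there, 1.37% in 0.1 µM replicate 3, came with a chloroplast share of 0.508%, within the range of the rest. A relation between the 2 shares was not tested. Chromosome 2 of Arabidopsis carries a nuclear insertion of mitochondrial DNA. The 14 nuclear genes with identifiers starting with AT2G07 were counted, though not all of them have mitochondria-like 3' ends. They held 0.0307% ± 0.00321 of counts at 100 µM and 0.0320% ± 0.000687 in the controls (SD, n = 3 each; exact two-sided permutation p = 0.6, where 0.1 is the smallest that 3 against 3 allow). In the reference, 9 nuclear genes of the table have 3' ends that match the mitochondrial genome over at least 75 bases at 90% identity or more. These had means of 1.20 to 21.5 counts, small beside ATMG00020 and ATMG01390 and of the size of the rarer mitochondrial genes. Which mitochondrial genes they match, and whether reads were shared, was not tested. Only 3' ends of nuclear genes in the table were searched, so the rest of the inserted DNA was not examined. Among the 14 genes starting with AT2G07, these 9 include only AT2G07629, AT2G07674, AT2G07765, AT2G07774, AT2G07783 and AT2G07811. The share of the 14 and its permutation p therefore do not measure counts on the inserted DNA. The part of library composition in the change of ATMG00020 was not tested.

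Nuclear genes for proteins of the organelle were called in both directions at 100 µM. A list of 83 nuclear genes annotated as subunits of complexes I to V or as other mitochondrial proteins had 73 in the table and 61 tested. The pairs AT1G79010 with AT1G16700 and AT2G19680 with AT4G29480 have near-identical 3' ends, so their counts are uncertain. At 100 µM against the controls 15 were called higher and 2 lower, with a median log2 change of 0.06 beside -0.02 over all genes tested. Against 18.1% of all genes called higher and 14.6% lower, the list had 15 of 61 and 2 of 61. Against the lower doses it had 18 higher and 10 lower of 61, beside 23.1% and 19.2% of all genes tested. At 0.1, 1 and 10 µM against the controls 0 of 61 were called by edgeR and 0 by DESeq2, with 1, 1 and 0 at an unadjusted p under 0.05.

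By complex, 4 of 18 genes of complex I, which oxidises NADH, were called higher and 1 lower at 100 µM, and 0 of 3 of complex II, succinate dehydrogenase, either way. These small counts stand beside 18.1% of all genes called higher and 14.6% lower, and no class was tested against those shares. In complex III with cytochrome c 2 of 11 were higher, in complex IV, cytochrome c oxidase, 2 of 6, and in complex V, ATP synthase, 4 of 8, with 0 lower in these 3 classes. Of 8 membrane channels and carriers 2 were higher, VDAC1, a porin of the outer membrane (log2 change 1.93 ± 0.31), and AAC1, an ADP/ATP carrier (1.38 ± 0.27). Of 2 genes of mitochondrial gene expression 1 was higher, and of 5 matrix enzymes 1 was lower.

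The 3 largest rises on the list were those of AT2G47380, ATP3 and COX6B. AT2G47380, annotated as cytochrome c oxidase subunit Vc, had 40.6 ± 11.6 CPM at 100 µM and 2.16 ± 1.17 CPM in the controls, a log2 change of 4.24 ± 0.52 (edgeR adjusted p = 7.12e-06). ATP3, the gamma subunit of ATP synthase, had 65.5 ± 6.24 CPM at 100 µM and 4.70 ± 1.58 CPM in the controls, a log2 change of 3.79 ± 0.34 (edgeR adjusted p = 2.56e-07). COX6B, another subunit of cytochrome c oxidase, had 14.6 ± 3.69 CPM at 100 µM and 1.60 ± 0.628 CPM in the controls, a log2 change of 3.19 ± 0.68 (edgeR adjusted p = 0.00146). Their control counts were 2 to 12 per library, so the sizes of these changes rest on few control counts.

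At the other end of the called genes stood mMDH1, a mitochondrial malate dehydrogenase, AT4G02580, a subunit of complex I, and AT2G33220, a complex I protein. mMDH1 had 68.7 ± 7.18 CPM at 100 µM and 131 ± 2.51 CPM in the controls, a log2 change of -0.94 ± 0.20 (edgeR adjusted p = 0.00133). AT4G02580 had 68.7 ± 20.8 CPM at 100 µM and 98.2 ± 9.11 CPM in the controls, a log2 change of -0.52 ± 0.19 (edgeR adjusted p = 0.0465). AT2G33220 rose by 0.40 ± 0.13 on the log2 scale (edgeR adjusted p = 0.0225), with 380 ± 31.1 CPM at 100 µM and 288 ± 11.9 CPM in the controls. All CPM values here are means with SD over 3 libraries.

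**Figure D5:**
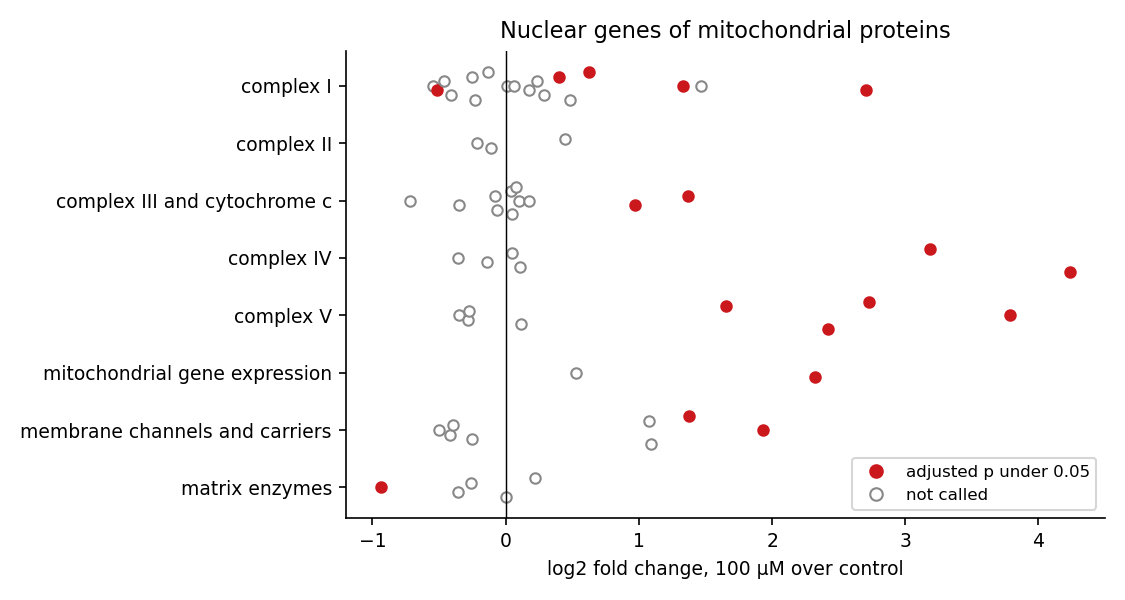
Log2 fold change from edgeR at 100 µM over the controls for 61 nuclear genes of mitochondrial proteins, grouped by complex or function, with filled points past an adjusted p of 0.05. Most points lie near 0, and the largest are genes of complexes IV and V, AT2G47380 at 4.24 and ATP3 at 3.79.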

How the data were processed

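The submitters' processing notes name bcl2fastq 2.17.1.14, cutadapt 1.8.3, STAR, HTSeq and DESeq2. The build, the annotation and any use of strand were not given in the sources used here. The deposited counts are raw and, per the file headers, had no filter on molecular identifiers. The deposited table also holds the authors' normalised signal (counts divided by a size factor) and regularised log2 values, neither used for tests. The authors' DESeq2 log2 fold changes and adjusted p-values were deposited per group pair, and each pair was matched to the labelled groups by its fold changes. The table had 0 other columns of per-sample values.

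Raw counts were tested with edgeR 4.0.16 (R 4.3.3): TMM factors, filterByExpr by group, and a quasi-likelihood fit of group over all 15 libraries, with Benjamini-Hochberg adjustment over 10374 tested genes and a threshold of 0.05. CPM use the TMM-scaled library total. DESeq2 1.42.0 was an alternative, and the edgeR step was tested on simulated data. Single values per library were compared by exact permutation (scipy 1.17.1). Names came from the reference annotation. No sequence or coordinate is printed, since the counts' build is unknown. Nuclear 3' ends, the last 500 genomic bases of each annotated gene, were compared with the mitochondrial genome by blastn 2.17.0.

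The mitochondrial genes, the nuclear list and the tests were chosen with earlier results of these data known. Values by library are given for the 10 mitochondrial genes with most counts, those with a name, and any called; of the nuclear list, the 3 called genes with the largest and the 3 with the smallest log2 change are named, and AAC1 and VDAC1 were added after their values were seen. Of 87 nuclear genes listed, 4 were left out because the annotation did not give the class. The biological coefficient of variation was 20.6%. Libraries had 834190 to 4554702 counts, so genes with few counts are the least precise.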

Additional observations from a re-analysis of the deposited data

How the results depend on the processing

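ATMG00020 kept its direction and its call at 100 µM under every alternative run, from -1.86 to -1.54 on the log2 scale against the controls and from -1.98 to -1.65 against the lower doses. These ranges cover other scalings, no filter, thinning, DESeq2, fits of only the groups compared and each library left out. The count of mitochondrial genes called was 3 to 5 against the controls and 3 to 4 against the lower doses with 1 library left out. After thinning to the smallest library it was 2 in both comparisons, with 8 genes tested; ATMG00090 and ATMG00516 were then not tested. With the replicate number as a block it was 5 and 4, with ATMG00660 added against the controls (edgeR adjusted p = 0.0493). Deviations of log2 CPM from the group means correlated at -0.153 to 0.306 between same-numbered libraries of different groups. By these deviations only 8 of 15 libraries correlated best with their own number, so the numbers were not taken to pair samples. Under the block and DESeq2, the nuclear list had 15 to 18 calls against the controls and 29 to 30 against the lower doses. On the log2 scale the mitochondrial share at 100 µM changed by -1.52 against the controls and -1.63 against the lower doses, but without ATMG00020 by -0.30 and -0.37. With ATMG00020 left out, ATMG01390 held 71.0% of the remaining mitochondrial counts at 100 µM and 65.1% in the controls, against 10.7% and 4.15% with it. Leaving out 1 library moved the change of the share to between -1.69 and -1.39, and that of the ratio of ATMG00020 to ATMG01390 to between -1.68 and -1.22, against the controls. DESeq2 gave no adjusted p for 17 of 23 genes at 1 µM against the controls and 11 at 10 µM against the mean of 0.1 and 1 µM.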
